A study of Homo sapiens with 4 samples.

Results

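Chemokine and interleukin genes were taken from the transcript tables of 4 libraries of T24, an established human bladder carcinoma cell line, by their gene symbols: CXC and CC chemokines, CX3CL1, numbered interleukins, the colony-stimulating factors CSF1 to CSF3, and LIF. The rule named 81 of 57879 genes, without use of any measured value. EV stands for cells with the empty pCDH lentiviral vector, and TET1-CD for cells with the same vector carrying the FLAG-tagged catalytic domain of TET1, an enzyme that oxidises 5-methylcytosine in DNA, with 2 libraries in each group. All 4 libraries were labelled as induced T24 cells, and the stable lines were kept as puromycin-selected cells in RPMI medium with fetal calf serum, so vector, selection and culture were shared by both groups. The domain was driven by the vector's promoter and lacked the rest of TET1, both groups came from 1 cell line, and whether the 2 libraries of a group came from separate cultures was not given, so the p-values measure the spread between these libraries, which may be technical.

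Chemokines are small secreted proteins that steer migrating leukocytes through G protein-coupled receptors. CXC chemokines with a Glu-Leu-Arg (ELR) motif, such as IL8 and CXCL5, act on CXCR1 and CXCR2 of neutrophils, whereas the interferon-induced CXCL10 and CXCL11 lack the motif and act on CXCR3 of activated T cells. Many interleukins and colony-stimulating factors, though not all, signal through receptor chains that feed into JAK-STAT or, for the IL-1 family, NF-kB. In epithelial and carcinoma cells NF-kB switches on many of these genes, while interferon signalling acts through the interferon-stimulated response element, ISRE.

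The members that the results turn on lie in clusters. In the GRCh37 coordinates of the deposited tables, IL8 began at base 74606223 of chromosome 4, followed by CXCL6 at 74702214, CXCL1 at 74735110, CXCL5 at 74861359, CXCL3 at 74902306 and CXCL2 at 74962752, and CXCL10 and CXCL11 lay further along the same chromosome at 76942273 and 76954835. CCL20 began at base 228678558 of chromosome 2. The 250 bases before the start sites of 7 of these genes are given because the genes moved in different directions or, for CXCL1, did not pass the test. They were taken from RefSeq (GRCh38.p14, read 5′ to 3′ on the gene's strand), and capitals mark matches to the NF-kB consensus, to its 9-base core GGAATTTCC on either strand, or to the ISRE core GAAANNGAAA on either strand.
CXCL8 (listed as IL8 in the expression files), chr4:73740319-73740568, plus strand: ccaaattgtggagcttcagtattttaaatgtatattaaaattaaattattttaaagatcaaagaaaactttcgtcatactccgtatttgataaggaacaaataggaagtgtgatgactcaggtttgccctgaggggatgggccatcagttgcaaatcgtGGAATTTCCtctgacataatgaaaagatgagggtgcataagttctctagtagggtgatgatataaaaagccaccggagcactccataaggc
CXCL1, chr4:73869143-73869392, plus strand: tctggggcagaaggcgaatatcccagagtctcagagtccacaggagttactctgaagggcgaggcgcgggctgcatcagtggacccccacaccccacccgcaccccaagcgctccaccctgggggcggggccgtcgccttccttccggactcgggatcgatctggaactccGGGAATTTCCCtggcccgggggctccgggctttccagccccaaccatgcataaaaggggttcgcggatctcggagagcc
CXCL5, chr4:73998678-73998927, minus strand: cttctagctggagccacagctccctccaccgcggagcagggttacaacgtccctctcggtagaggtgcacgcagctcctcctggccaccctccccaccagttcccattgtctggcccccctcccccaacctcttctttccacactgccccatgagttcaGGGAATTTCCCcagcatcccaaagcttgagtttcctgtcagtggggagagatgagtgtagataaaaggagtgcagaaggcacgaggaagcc
CXCL6, chr4:73836428-73836677, plus strand: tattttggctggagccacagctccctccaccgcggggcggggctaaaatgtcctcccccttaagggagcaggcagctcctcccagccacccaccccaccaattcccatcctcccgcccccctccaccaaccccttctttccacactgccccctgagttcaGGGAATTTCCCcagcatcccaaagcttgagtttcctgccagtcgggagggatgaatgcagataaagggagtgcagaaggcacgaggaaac
CCL20, chr2:227813592-227813841, plus strand: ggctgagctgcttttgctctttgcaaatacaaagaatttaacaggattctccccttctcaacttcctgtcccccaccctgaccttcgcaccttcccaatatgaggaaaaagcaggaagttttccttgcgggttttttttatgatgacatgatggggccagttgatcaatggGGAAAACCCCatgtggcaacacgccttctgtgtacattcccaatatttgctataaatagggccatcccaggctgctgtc
CXCL10, chr4:76023498-76023747, minus strand: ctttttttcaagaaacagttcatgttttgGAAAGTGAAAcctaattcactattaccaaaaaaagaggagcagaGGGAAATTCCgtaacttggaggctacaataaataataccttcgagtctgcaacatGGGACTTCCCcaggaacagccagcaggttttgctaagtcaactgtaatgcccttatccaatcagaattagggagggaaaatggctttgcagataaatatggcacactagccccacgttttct
CXCL11, chr4:76036071-76036320, minus strand: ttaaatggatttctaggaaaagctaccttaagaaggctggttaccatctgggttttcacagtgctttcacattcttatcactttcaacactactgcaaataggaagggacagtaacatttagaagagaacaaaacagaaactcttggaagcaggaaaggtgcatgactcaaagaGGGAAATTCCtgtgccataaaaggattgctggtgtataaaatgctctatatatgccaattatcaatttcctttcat

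The upstream stretches of CXCL5 and CXCL6 were close copies of each other. Shifted by 1 base they were identical at 214 of 249 positions (85.9%), with an uninterrupted run of 45 shared bases, against 32.4% identity and a longest run of 11 bases between CXCL1 and CXCL5. In both, the 9-base core lay within the run, at −90 to −82 from the start in CXCL5 and −89 to −81 in CXCL6. In CXCL1 it lay at −78 to −70 and in IL8 at −91 to −83. The core was also present in the falling genes CXCL10, at −176 to −168, and CXCL11, at −75 to −67. Whether its presence goes with the direction of change was not tested. CXCL10 also held an ISRE core at −221 to −212 and an NF-kB consensus match at −122 to −113. CCL20 held a single consensus match at −79 to −70.

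Promoter windows from 250 bases before to 50 bases after the start were matched for 57 of the 81 genes, 20 of which were measured well enough to be tested. The 9-base core occurred in windows of 8 of the 57 members, namely CXCL1, CXCL2, CXCL3, CXCL5, CXCL6, IL8, CXCL10 and CXCL11, against 0.560% of 27305 genes with a window. The longer NF-kB consensus, which overlaps the core, occurred in 14 of the 57 members and 7.09% of all genes. The ISRE core occurred in 7 members and 4.38% of all genes. Among the tested members it was found in CXCL10, IL12A and IL24. CpG dinucleotides, the sites that TET enzymes act on when methylated, had a lower median in these windows than over all genes. The median was 4 per window over the 57 members, 7 over the 20 tested members and 14 over all genes. CXCL1, CXCL2 and CXCL3 held 22, 22 and 24 CpGs, whereas CXCL5 held 9, CXCL6 held 8, IL8 held 4, CCL20 and CXCL10 held 3 each, and CXCL11 held none. DNA methylation was not measured in the files used here, and a letter match does not show that a factor binds.

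Most chemokine and interleukin genes were silent or close to it. Counts below are fragments assigned to a gene, estimated per transcript by the submitters and summed here per gene. Of the 81 genes, 31 had no fragment in any library, including IL2, IL4, IL5, IL10, IL17A, CXCL9, CXCL12 and CCL22. Another 15 reached at most 3 counts, and 35 exceeded 3 counts in at least 1 library. A filter on low counts kept 29 members among the 14573 genes tested. A count of 0 is compatible with up to 3 fragments in a library, so silence here means not detected at this depth. The library totals were 17442143 to 20295266 fragments, and the floor of 3 covers counting error only.

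A few members were among the most abundant transcripts of these cells, and most of the others lay far lower. Together the 81 genes took 0.863% and 0.914% of all fragments in EV, against 1.11% and 0.974% in TET1-CD libraries. IL8, CXCL1, CSF3, IL1B, LIF and IL6 made up 89.8 to 90.5% of these fragments in every library. Levels between genes are compared as FPKM, the deposited fragment value scaled for transcript length and library depth, summed over the transcripts of a gene. CXCL1 reached 1847 and 1931 FPKM in EV, against 2268 and 1980 in TET1-CD cells, and ranked 10th to 18th among all genes. IL8 reached 1616 and 1637 FPKM in EV, against 2229 and 1917 in TET1-CD cells. The neutrophil growth factor gene CSF3 stood at 858 to 1039 FPKM, IL1B at 602 to 834 FPKM and IL6 at 431 to 625 FPKM. The other tested members spanned the range from LIF, at 180 to 215 FPKM, down to CX3CL1, at 0.02 to 0.19 FPKM.

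**Figure D1:**
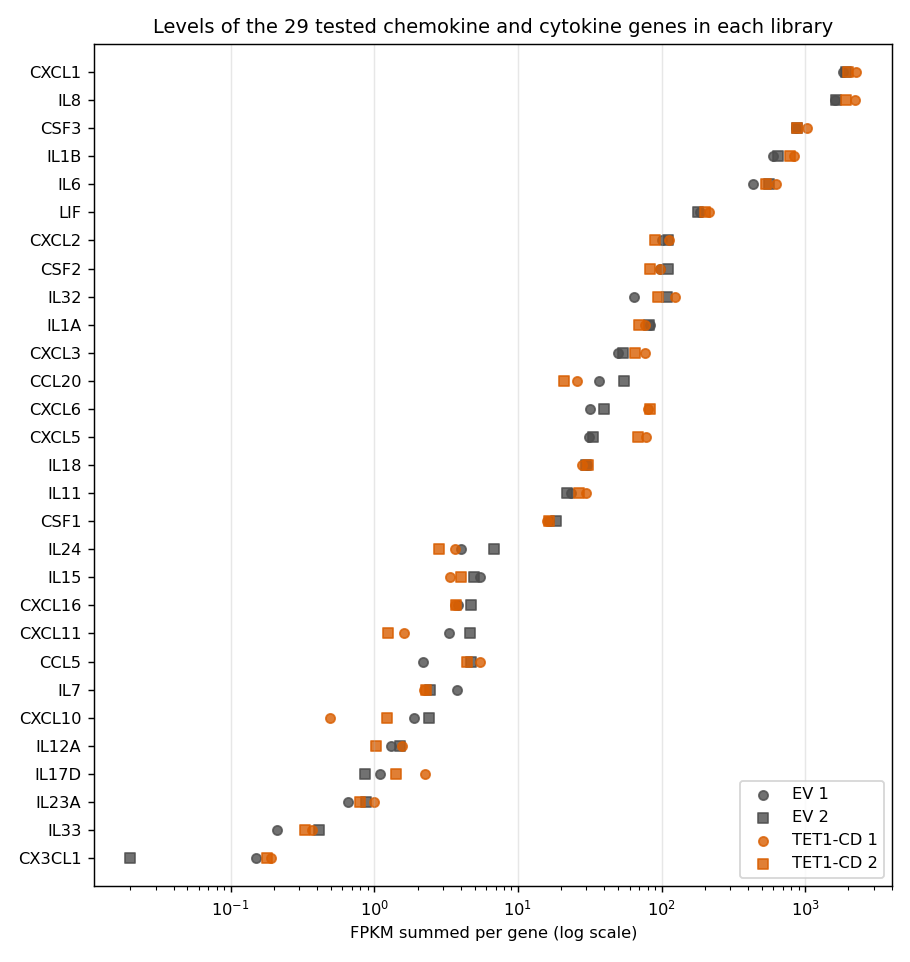
Level of each of the 29 tested members in each library, as FPKM summed per gene on a log axis, with circles and squares for replicates 1 and 2, grey for EV and orange for TET1-CD. CXCL1 and IL8 stand highest, at 1616 to 2268 FPKM, and the orange points of CXCL5 and CXCL6 lie to the right of both grey points while those of CCL20 and CXCL11 lie to the left.

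TET1 itself checks the labels. It had 111 and 83 counts in EV, against 2939 and 3310 in TET1-CD libraries, a log2 fold change of 5.02 (SE 0.08, adjusted p = 4.9e-10). All folds below are TET1-CD over EV, from edgeR's quasi-likelihood test on all genes, with p-values adjusted by the Benjamini-Hochberg method over all 14573.

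At an adjusted p under 0.05, 6 of the 29 tested members rose (20.7%) and 5 fell (17.2%). Over all tested genes 10.0% rose and 9.61% fell. CXCL5, CXCL6, CXCL3, IL1B, IL11 and IL8 rose, and CXCL11, CXCL10, CCL20, IL24 and IL15 fell. Of these, CXCL5 and CXCL6 rose by at least 2-fold (background 2.72% of genes), and CXCL11 and CXCL10 fell by at least 2-fold (background 1.04%). The median log2 fold change was 0.11 over the tested members and 0.00095 over all tested genes. The tested members had a median of 694 normalized counts in EV against 459.9 over all tested genes. Whether this bears on the share of calls was not tested. Libraries of the 2 groups did not overlap, with TET1-CD higher, for 10 of the 29 members, close to the 30.8% of all genes. They did not overlap with TET1-CD lower for another 10 members, against 30.2% of all genes. The calls depended on the group from which a library was left out. Fewer members and fewer of all genes passed when TET1-CD replicate 1 or 2 was left out. More passed when EV replicate 1 or 2 was left out. CXCL5, CXCL6, CXCL11 and CCL20 passed whichever library was left out. With DESeq2, IL11, IL15 and IL24 did not pass (adjusted p = 0.110, 0.354 and 0.0669), nor did CXCL10. IL11, IL15 and IL24 also did not pass on log2(FPKM + 0.1) or log2(FPKM + 1). CXCL10 did not pass on log2(FPKM + 0.1) (adjusted p = 0.0641). In these bulk samples, fewer cells of a type and less RNA per cell cannot be told apart.

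**Figure D2:**
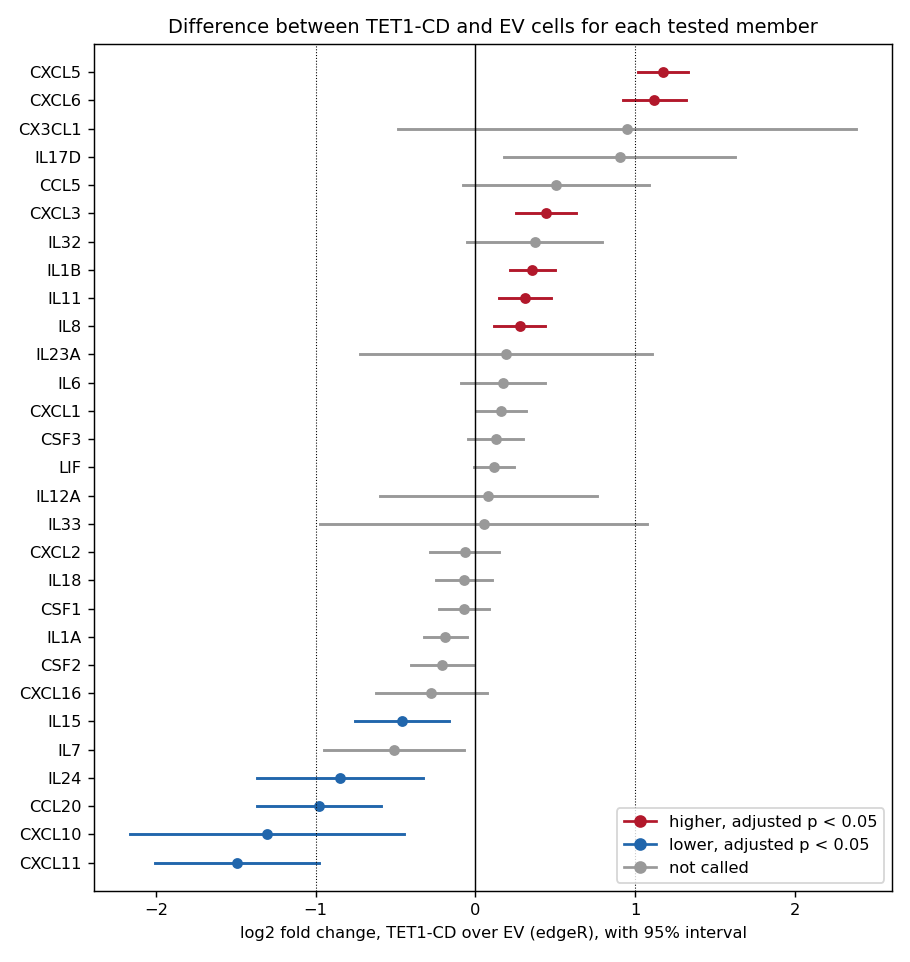
Log2 fold change of each tested member, TET1-CD over EV, with its 95% interval; red marks members higher and blue members lower at an adjusted p under 0.05, and dotted lines mark a 2-fold change. CXCL5 and CXCL6 stand at 1.17 and 1.12, CXCL10 and CXCL11 at −1.30 and −1.49, and most of the others lie within the dotted lines.

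Among the members that passed, the ELR chemokines CXCL5 and CXCL6 rose most. All 6 ELR chemokines that the symbol rule named were tested, 4 rose and none fell, against 10.0% and 9.61% of all tested genes. CXCL5, a neutrophil attractant made by epithelial cells, had 1598 and 1474 counts in EV, against 3438 and 3417 in TET1-CD libraries. Both TET1-CD libraries lay above both EV libraries, and the normalized level moved from 1533 ± 82.0 to 3457 ± 286 (SD, n = 2 each), a log2 fold change of 1.17 (SE 0.07, adjusted p = 4.71e-06). CXCL6, its nearest relative in the cluster, had 1037 and 1103 counts in EV, against 2204 and 2422 in TET1-CD libraries. The libraries again did not overlap, and the log2 fold change was 1.12 (SE 0.09, adjusted p = 2.8e-05). CXCL5 and CXCL6 passed under all 13 alternative settings tried.

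The other ELR chemokines lay between CXCL6 and CXCL5 on the chromosome or beside them, and had smaller fitted changes. CXCL3 had 1095 and 1026 counts in EV, against 1458 and 1391 in TET1-CD libraries, a log2 fold change of 0.44 (SE 0.08, adjusted p = 0.00537). IL8, the archetypal neutrophil chemokine, had 50483 and 44855 counts in EV, against 57849 and 56100 in TET1-CD libraries. Its log2 fold change was 0.28 (SE 0.07, adjusted p = 0.024). Neither call held without TET1-CD replicate 1, where CXCL3 stood at 0.33 (adjusted p = 0.105) and IL8 at 0.17 (adjusted p = 0.419). CXCL1 had 40931 and 36772 counts in EV, against 43398 and 42291 in TET1-CD libraries, and its log2 fold change of 0.16 (95% interval 0.00055 to 0.32) did not pass the test (adjusted p = 0.149), although it did without EV replicate 2 (0.19, adjusted p = 0.0301). CXCL2 had 2387 and 2269 counts in EV, against 2327 and 2065 in TET1-CD libraries. These overlapped, and the interval of −0.28 to 0.15 on the log2 scale included neither a doubling nor a halving (adjusted p = 0.684).

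The ratio of FPKM values within a library showed the same unequal movement without any scaling between libraries. CXCL5 stood at 0.309 and 0.301 of CXCL2 in EV libraries, against 0.688 and 0.766 in TET1-CD libraries. CXCL6 stood at 0.316 and 0.361 of CXCL2 in EV, against 0.720 and 0.918 in TET1-CD libraries. CXCL5 and CXCL6 kept a ratio to each other of 0.833 to 0.979 in all 4 libraries, with the ranges of both groups overlapping. These differences between members of the cluster were not tested. The platelet chemokine genes PF4V1 and PPBP within the cluster had no counts, and PF4 had 1 or 2 counts per library.

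Sequence shared between transcripts could blur CXCL1, CXCL2 and CXCL3 more than CXCL5 and CXCL6. CXCL2 and CXCL3 transcripts shared 139 stretches of 50 bases, 9.63% of those of CXCL2, and CXCL1 and CXCL2 shared 60, or 4.57% of those of CXCL1. CXCL5, CXCL6 and IL8 shared none with the other compared members. Summed over CXCL1, CXCL2 and CXCL3, which no exchange of reads among them could alter, counts were 44413 and 40067 in EV, against 47183 and 45747 in TET1-CD libraries. CXCL1 alone supplied 40931 and 36772 of these counts in EV, so the sum cannot show whether CXCL2 and CXCL3 were blurred. CXCL5 and CXCL6 summed to 2635 and 2577 in EV, against 5642 and 5839 in TET1-CD libraries.

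**Figure D3:**
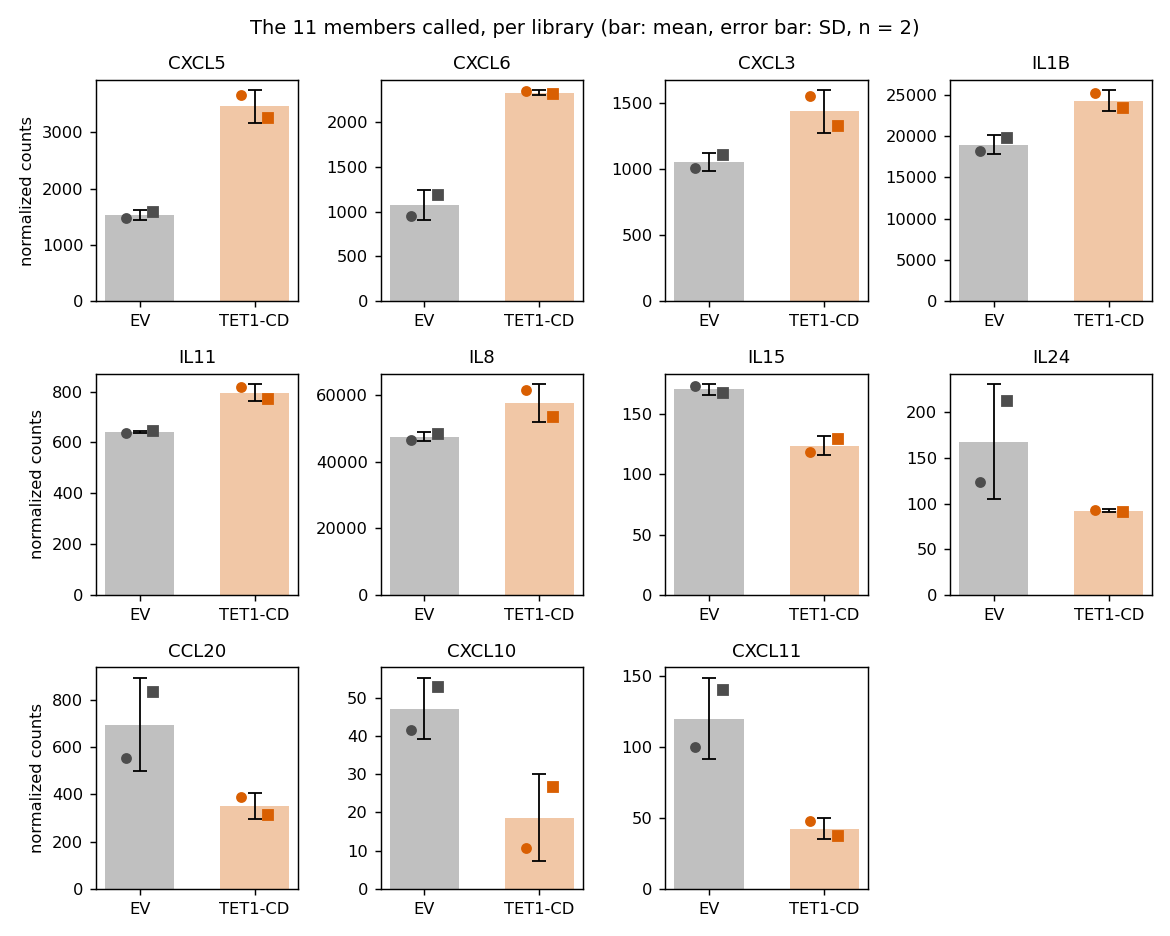
Normalized counts of the 11 members that passed the test, with a bar for the mean of each group, an error bar for the SD (n = 2) and a point for each library. CXCL5 moved from a mean of 1533 to 3457 and CCL20 from 694 to 351, and in every panel the points of the 2 groups do not overlap.

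The chemokines that fell, CXCL11, CXCL10 and CCL20, act on T cells and dendritic cells. CXCL11, a ligand of CXCR3 induced by interferon, had 108 and 130 counts in EV, against 45 and 39 in TET1-CD libraries. Both TET1-CD libraries lay far below both EV libraries, at 0.355 of the EV level (log2 fold change −1.49, SE 0.23, adjusted p = 0.00196). CXCL10, another CXCR3 ligand and its neighbour on the chromosome, had 45 and 49 counts in EV, against 10 and 28 in TET1-CD libraries. Its log2 fold change of −1.30 (SE 0.38, adjusted p = 0.0397) rested on these few counts, was −0.81 without TET1-CD replicate 1 (adjusted p = 0.287), −1.13 without EV replicate 2 (adjusted p = 0.0794), and did not pass with DESeq2 (adjusted p = 0.177). CXCL9, the remaining CXCR3 ligand, had no counts in any library. CXCL16, which exists as a membrane-bound and a shed form, had 160 and 174 counts in EV, against 120 and 155 in TET1-CD libraries and did not pass (log2 fold change −0.28, adjusted p = 0.250), though it did without EV replicate 1 (−0.45, adjusted p = 0.0474).

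CCL20, the ligand of CCR6 that draws immature dendritic cells and Th17 cells, had 601 and 773 counts in EV, against 366 and 329 in TET1-CD libraries. Its libraries did not overlap, the level in TET1-CD cells was 0.507 of that in EV (log2 fold change −0.98, SE 0.17, adjusted p = 0.00398), and it passed under all 13 alternative settings, as did CXCL11. Among the 24 CC chemokines only CCL20 and CCL5 were tested. CCL5, which attracts T cells and monocytes, had 60 and 99 counts in EV, against 116 and 109 in TET1-CD libraries. These did not overlap in raw counts but did after normalization, and the log2 fold change of 0.50 did not pass (adjusted p = 0.213). EV replicate 2 decided this value, since without it the change was 1.03 (adjusted p = 0.0028). CX3CL1, the membrane-tethered chemokine, had 10 and 2 counts in EV, against 11 and 12 in TET1-CD libraries, too few to place it (log2 fold change 0.95, 95% interval −0.48 to 2.38).

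In the IL-1 family, IL1B rose and its tested relatives did not pass the test. IL1B, a secreted activator of NF-kB in neighbouring cells, had 19694 and 18285 counts in EV, against 23629 and 24540 in TET1-CD libraries. The libraries did not overlap (log2 fold change 0.36, SE 0.06, adjusted p = 0.00377), but the call was lost without TET1-CD replicate 1 (0.30, adjusted p = 0.126). IL1A, an alarmin that acts on the same receptor, had 3566 and 3043 counts in EV, against 2847 and 2877 in TET1-CD libraries, with a log2 fold change of −0.19 that missed the threshold (adjusted p = 0.055). It passed when EV replicate 1 (−0.20, adjusted p = 0.0233) or EV replicate 2 (−0.19, adjusted p = 0.0188) was left out. The FPKM ratio of IL1B to IL1A was 7.28 and 7.91 in EV libraries, against 10.9 and 11.2 in TET1-CD libraries. IL18, whose precursor is matured by inflammasomes, had 714 and 602 counts in EV, against 561 and 681 in TET1-CD libraries. These overlapped in raw counts, and after normalization the closest libraries of the 2 groups, at 649.6 and 648.6, nearly met (−0.07, adjusted p = 0.581). IL33 had 11 to 19 counts in every library (0.05, 95% interval −0.97 to 1.07). IL37, an anti-inflammatory relative, had 2 and 4 counts in EV and none in TET1-CD libraries and was not tested.

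Of the cytokines that signal through gp130, IL11 rose. IL11, known for its action on fibroblasts and epithelium, had 691 and 596 counts in EV, against 770 and 810 in TET1-CD libraries (log2 fold change 0.31, SE 0.07, adjusted p = 0.0154). The call was lost without TET1-CD replicate 1 (0.27, adjusted p = 0.197) and without TET1-CD replicate 2 (0.36, adjusted p = 0.0621). IL6, a driver of STAT3 signalling, had 7432 and 8502 counts in EV, against 9150 and 8757 in TET1-CD libraries, and its log2 fold change of 0.17 did not pass (adjusted p = 0.340). The EV libraries disagreed for this gene: without EV replicate 2 the change was 0.40 (adjusted p = 0.00027), and without EV replicate 1 it was −0.03 (adjusted p = 0.786). LIF, which holds stem cells undifferentiated, had 12744 and 10813 counts in EV, against 12393 and 12791 in TET1-CD libraries (0.11, 95% interval −0.01 to 0.24, adjusted p = 0.190).

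No colony-stimulating factor passed the test. CSF3, the growth factor of neutrophils, had 27215 and 23925 counts in EV, against 28352 and 26684 in TET1-CD libraries (log2 fold change 0.13, adjusted p = 0.285). CSF2, which supports granulocytes and macrophages, had 1557 and 1507 counts in EV, against 1349 and 1276 in TET1-CD libraries (−0.21, adjusted p = 0.127), and passed without EV replicate 1 (−0.31, adjusted p = 0.0128). CSF1, the macrophage factor, had 1256 and 1215 counts in EV, against 1092 and 1241 in TET1-CD libraries (−0.07, 95% interval −0.23 to 0.08). The intervals of these genes lay within −0.40 and 0.30 on the log2 scale, so a 2-fold change was outside each. IL34, a second ligand of the CSF1 receptor, had no counts in EV, against 4 and 3 in TET1-CD libraries.

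Among the remaining interleukins IL24 and IL15 fell. IL24, an IL-10 family cytokine, had 134 and 197 counts in EV, against 88 and 96 in TET1-CD libraries (log2 fold change −0.85, SE 0.23, adjusted p = 0.0294). Without EV replicate 2 the change was −0.42 (adjusted p = 0.108), and without TET1-CD replicate 1 or 2 its adjusted p was 0.136 or 0.124. IL15, which sustains natural killer and memory T cells, had 188 and 155 counts in EV, against 111 and 136 in TET1-CD libraries (−0.46, SE 0.13, adjusted p = 0.0357). It did not pass without EV replicate 1 (−0.44, adjusted p = 0.0615), TET1-CD replicate 1 (−0.39, adjusted p = 0.261) or TET1-CD replicate 2 (−0.53, adjusted p = 0.123).

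IL7, the lymphocyte survival factor of the same receptor family as IL15, had 123 and 77 counts in EV, against 67 and 71 in TET1-CD libraries. Its log2 fold change of −0.51 did not pass (adjusted p = 0.101), and was −0.71 without EV replicate 2 (adjusted p = 0.019). IL32, a cytokine gene with many splice forms, had 1193 and 1710 counts in EV, against 1996 and 1757 in TET1-CD libraries. It stood at 0.37 (adjusted p = 0.207), and at 0.78 without EV replicate 2 (adjusted p = 1.76e-05). For these genes, as for CCL5 and IL6, the EV libraries were further apart than the TET1-CD libraries. IL17D had 29 and 20 counts in EV, against 53 and 37 in TET1-CD libraries (0.90, 95% interval 0.18 to 1.62, adjusted p = 0.0797). IL12A and IL23A, subunits of IL-12 and IL-23, had 14 to 36 counts and intervals that spanned 0. Of the members above 3 counts that were too low to test, CCL26 had 1 and 4 counts in EV, against 6 and 9 in TET1-CD libraries, CCL28 had 1, 2, 8 and 6 in the same order, IL17C had 4, 4, 9 and 8, and IL16 had 5, 7, 4 and 2.

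Receptors for the chemokines that moved were scarcely detected in these cells. CXCR1 had no counts in EV, against 2 and 1 in TET1-CD libraries, CXCR2 had 0 to 3 counts, and CXCR3 and CCR6 had none. Of 24 chemokine receptor genes found, 9 had no counts, 4 were tested and 1 fell, namely CCR4. It had 14 and 13 counts in EV, against 0 and 3 in TET1-CD libraries. With the lower group set to a floor of 3 counts per library, it stood 4.45-fold lower (2.16 on the log2 scale). The log2 fold change called was −3.06 (95% interval −4.91 to −1.20, adjusted p = 0.0288), so a smaller fall was not excluded. This call was lost with DESeq2 (adjusted p = 0.153), on log2(FPKM + 0.1) (adjusted p = 0.067) and log2(FPKM + 1) (adjusted p = 0.148), and without TET1-CD replicate 1 (adjusted p = 0.221) or replicate 2 (adjusted p = 0.0559). CSF3R reached at most 4 counts and IL1RN, the IL-1 receptor antagonist gene, at most 1 count.

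Several interleukin receptor genes were well expressed. Of 49 interleukin and colony-stimulating factor receptor genes, 29 were tested, 5 rose and 3 fell, against 10.0% and 9.61% of all genes, and the median log2 fold change was 0.03. IL13RA2, the decoy receptor for IL-13, rose from 358 and 320 counts to 882 and 954 (1.45, adjusted p = 2.25e-06). IL1R1, the receptor on which IL1A and IL1B act, rose from 249 and 197 counts to 325 and 374 (0.66, adjusted p = 0.00194). Its partner chain IL1RAP fell by 0.33 on the log2 scale (adjusted p = 0.0162), a call not checked under the alternative settings. IL12RB1 and the interferon lambda receptor IFNLR1 rose by 1.79 and 1.25 on the log2 scale from at most 31 counts in EV, and IL17RC fell by 0.56. With DESeq2 neither IL12RB1 (adjusted p = 0.102) nor IFNLR1 (adjusted p = 0.0768) passed. IL12RB1 also did not pass without TET1-CD replicate 1 (1.88, adjusted p = 0.0834) or replicate 2 (1.69, adjusted p = 0.130), nor IFNLR1 without TET1-CD replicate 1 (1.06, adjusted p = 0.126) or on either FPKM scale (adjusted p = 0.0651). IL6ST, which encodes gp130, had 10843 and 8179 counts in EV, against 8722 and 9622 in TET1-CD libraries, and it did not pass (−0.03, adjusted p = 0.789). Its partner genes LIFR (0.14, adjusted p = 0.310) and OSMR (0.05, adjusted p = 0.626) did not pass either.

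Signalling genes moved in both directions. Of 51 tested genes of NF-kB, IL-1 and Toll-like receptor signalling 8 rose and 10 fell, against 10.0% and 9.61% of all genes, with a median log2 fold change of −0.05. SIGIRR, an inhibitory IL-1 receptor relative, rose by 0.91 on the log2 scale, TRAF2 by 0.37 and the kinase gene CHUK by 0.31. The NF-kB feedback inhibitor TNFAIP3 fell by 0.36 and the double-stranded RNA sensor TLR3 fell by 0.64. TRAF2 did not pass without TET1-CD replicate 1 (0.38, adjusted p = 0.0563) or replicate 2 (0.36, adjusted p = 0.0556), nor CHUK without replicate 1 (0.30, adjusted p = 0.0879) or replicate 2 (0.31, adjusted p = 0.0799), nor TNFAIP3 without replicate 2 (−0.30, adjusted p = 0.092). Of 25 JAK-STAT and SOCS genes 4 rose and 5 fell, against the same shares of all genes. STAT2, which transmits interferon signals to ISREs, fell from 974 and 829 counts to 551 and 626 (−0.60, adjusted p = 0.00037). SOCS6 and PIAS2, regulators of such signalling, fell by 0.43 and by 0.39. SOCS3, a feedback inhibitor of gp130 signalling, rose by 0.34. JAK3 had no counts in EV, against 21 and 14 in TET1-CD libraries, 5.94-fold higher with EV set to the floor of 3 counts per library. JAK3 did not pass on log2(FPKM + 1) (adjusted p = 0.138). Without TET1-CD replicate 1 the calls of SOCS6 (−0.38, adjusted p = 0.066), SOCS3 (0.26, adjusted p = 0.182) and PIAS2 (−0.42, adjusted p = 0.058) were lost, that of PIAS2 also without TET1-CD replicate 2 (−0.35, adjusted p = 0.0941) and with DESeq2 (adjusted p = 0.0532), and that of SOCS6 also on log2(FPKM + 0.1) (adjusted p = 0.0568) and log2(FPKM + 1) (adjusted p = 0.0618).

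Of 20 tested genes of cytokine maturation and mRNA decay 6 fell and 1 rose, against 9.61% and 10.0% of all genes, with a median log2 fold change of −0.09. ZFP36L1, whose protein directs AU-rich cytokine mRNAs to decay, fell from 4753 and 4138 counts to 2750 and 3108 (−0.59, adjusted p = 5.98e-05). DFNA5, CASP8 and the sheddase gene ADAM17 fell by 0.52, by 0.33 and by 0.33 on the log2 scale, and the inflammasome adaptor PYCARD rose by 0.95. CASP8 and ADAM17 did not pass without TET1-CD replicate 1 (−0.31 and −0.32, adjusted p = 0.0814 and 0.0793) or replicate 2 (−0.34 and −0.35, adjusted p = 0.0571 and 0.0575). Of 9 tested cytokines of these families outside the symbol rule 5 fell and 1 rose, against the same shares of all genes (median −0.35). LTB, FLT3LG and TNFSF10, which encode lymphotoxin beta, the FLT3 ligand and TRAIL, stood at −1.01, −1.07 and −1.05, MIF stood at −0.26, and the KIT ligand gene KITLG at 0.41. LTB passed in every alternative run, whereas with DESeq2 FLT3LG (adjusted p = 0.174) and TNFSF10 (adjusted p = 0.0844) did not. FLT3LG also did not pass without TET1-CD replicate 2 (−0.73, adjusted p = 0.209), nor TNFSF10 without EV replicate 2 (−0.72, adjusted p = 0.0623), TET1-CD replicate 1 (−1.02, adjusted p = 0.111) or TET1-CD replicate 2 (−1.10, adjusted p = 0.0751). Without TET1-CD replicate 1 or 2, MIF (−0.22 and −0.29, adjusted p = 0.254 and 0.108) and KITLG (0.43 and 0.38, adjusted p = 0.0549 and 0.0826) did not pass, and MIF missed on log2(FPKM + 1) (adjusted p = 0.0515). In all these lists together 49 genes passed, out of the tested numbers given above for each list. Over all 14573 tested genes 2865 passed (19.7%). Fewer listed genes and fewer of all genes passed when TET1-CD replicate 1 or 2 was left out.

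**Figure D4:**
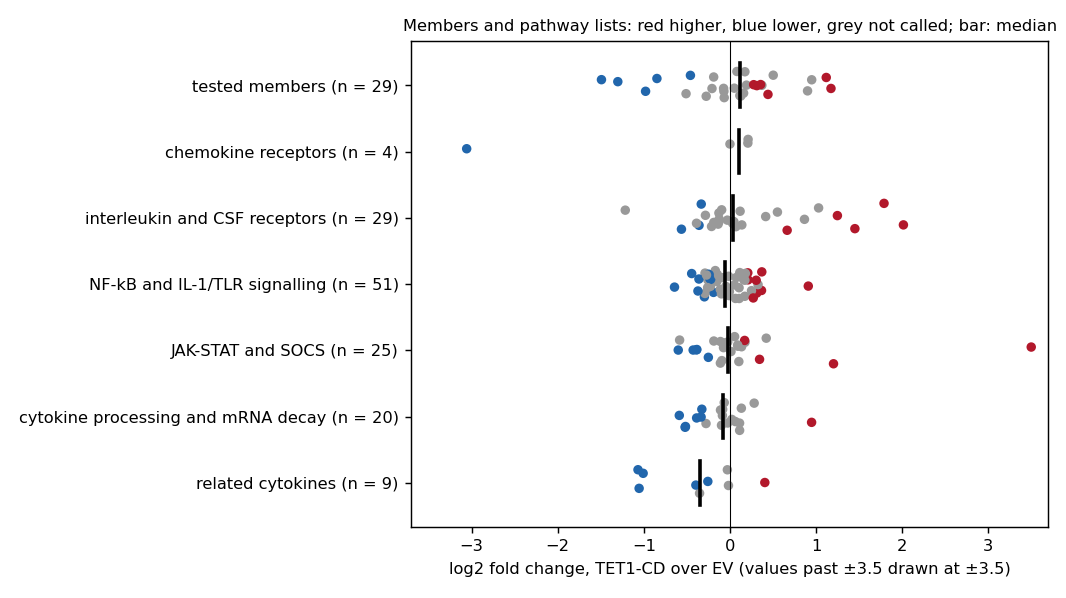
Log2 fold change, TET1-CD over EV, of each tested gene in the member list and 6 related lists, red higher and blue lower at an adjusted p under 0.05, with a black bar at the median. The medians lie between −0.35 for the related cytokines and 0.11 for the members, and most lists hold calls in both directions.

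Markers of other cells were low. Of 16 leukocyte markers 13 had at most 3 counts, MS4A1 and TYROBP were at 0, and the list summed to 1.65 and 2.07 FPKM in EV, against 0.79 and 0.82 in TET1-CD libraries, against 1616 to 2229 FPKM for IL8 alone. The decrease in that sum went with ITGAM, at 22 and 29 counts in EV, against 3 and 8 in TET1-CD libraries. Epithelial markers summed to 1434 to 1484 FPKM in EV and 1630 to 1664 FPKM in TET1-CD libraries, with KRT7, KRT18, KRT19, GATA3 and FOXA1 higher among 8 tested and 5 of 14 at 3 counts or fewer, KRT5 at 0 and the uroplakin genes UPK1A, UPK1B and UPK3A among them. Fibroblast and endothelial markers summed to 1.93 and 1.95 FPKM in EV, against 5.32 and 4.30 in TET1-CD libraries, with COL1A1 higher. Their part in the chemokine and interleukin differences was not tested.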

How the data were processed

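RNA from 2 EV and 2 TET1-CD T24 libraries was sequenced on an Illumina HiSeq after poly(A) selection or ribosomal RNA removal (the labels name both). Per the submitters' processing notes the tools were cutadapt 1.9.1, HISAT2 2.0.1, HTSeq 0.6.1 and DESeq2, with build hg19; the quantifier behind the non-whole counts is not given in the sources used here, nor is strandedness. The authors deposited expected counts (estimated counts per transcript, not normalized) and FPKM, normalized by them for length and depth. FPKM tables carry the same transcripts. Here expected counts were summed per gene and rounded, giving 17442143 to 20295266 per library. edgeR 4.0.16 in R 4.3.3 (filterByExpr with a minimum count of 10, TMM, quasi-likelihood test, no covariate) compared the groups over 14573 genes. SE is the log2 fold change over the root of F, and normalized counts are scaled to the mean effective library. Alternatives were DESeq2 1.42.0, voom and limma-trend (limma 3.58.1), log2(FPKM + 0.1) and log2(FPKM + 1), other scalings and filters, a replicate block, and each library left out. The fit was tested on simulated data. All tested members are named, and in each related list the 5 genes with the smallest adjusted p; receptors of the members and the printed promoters were chosen after values were seen. Members and lists were chosen with earlier results of these data known. Proteins were not used here.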

Additional observations from a re-analysis of the deposited data

How the results depend on the processing

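CXCL5, CXCL6, CXCL11 and CCL20 passed under all 13 alternatives, with log2 fold changes of 1.09 to 1.26, 0.96 to 1.28, −1.73 to −1.03 and −1.26 to −0.66. The 11 members called (6 higher, 5 lower) became 7 with DESeq2 (2 lower), 7 on log2(FPKM + 0.1) (2 lower) and 3 lower on log2(FPKM + 1). With no count filter 19 members (11 higher, 8 lower) and 3603 of all genes passed. Leaving out 1 library gave 4 to 15 members, 2 to 10 higher and 2 to 7 lower. Of all genes, 2865 passed, 1472 with DESeq2, 1595 on log2(FPKM + 0.1), 1564 on log2(FPKM + 1) and 832 to 3779 with 1 library left out. At 2-fold or more 549 passed, 332 with DESeq2, 332 with 10 counts in every library, 148 on log2(FPKM + 1) and 323 to 617 with 1 library left out. In the related lists 49 passed, 27 with DESeq2, 31 and 29 on the FPKM scales and 13 to 64 with 1 library left out. Signs reversed for IL12A on log2(FPKM + 0.1) (−0.13) and log2(FPKM + 1) (−0.074), and, with 1 library left out, for CXCL2 (−0.24 to 0.092), IL33 (−0.40 to 0.61), IL12A (−0.14 to 0.28), IL23A (−0.020 to 0.40), CSF1 (−0.17 to 0.014), CSF3 (−0.0017 to 0.24) and IL6 (−0.030 to 0.40). None of these had passed the test. The cause of these shifts was not tested, except that fewer libraries enter a fit with 1 left out, where the lone library of a group is assumed to vary like the other group.

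The labels do not say whether same-numbered libraries share a culture. The correlation of deviations between same-numbered libraries was 0.00713 over 14573 genes, which alone cannot show whether they do. Under the replicate block 13 members (7 higher, 6 lower) and 3235 of all genes passed, IL17D (adjusted p = 0.0453) and IL1A (adjusted p = 0.0443) being added. Members under about 50 counts, CXCL10 among them, have wide intervals at this depth.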

Other observations

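IL8 fragments were assigned mainly to 2 transcripts. The transcript ENST00000307407 took 92.6% and 94.1% of IL8 fragments in EV and 89.6% and 90.4% in TET1-CD libraries, and ENST00000401931 took 7.15% and 5.68% in EV and 10.3% and 9.37% in TET1-CD libraries. For CXCL6, ENST00000515050 took 3.18% and 4.17% in EV and 4.99% and 6.94% in TET1-CD libraries. These shares are estimates of the quantifier and were not tested. How often transcript shares differ in this way over all genes was not counted. IL11 fragments were spread more evenly, with 40.3 to 50.4% in ENST00000264563, whereas a single transcript held 98.8 to 99.3% of IL1B fragments.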
